A study of Mus musculus with 18 samples.

Results

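The Fos and Jun family, which forms the transcription factor AP-1, was followed in mouse fibroblasts under heat stress and under tunicamycin. Its members were taken by gene name: the Fos subfamily of Fos, Fosb, Fosl1 and Fosl2, and the Jun subfamily of Jun, Junb and Jund. These are 7 of the 20207 genes listed for every sample, and all 7 had at least 1 read in each of the 18 samples, as did 12731 genes in all.

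Poly(A) RNA was sequenced from NIH3T3 cells, an established mouse fibroblast line, made to express DD-GFP, a green fluorescent protein fused to a destabilizing domain (DD). The cells were a pool sorted for high GFP, and the reference, HS and tunicamycin cultures alike were kept with S1, a ligand under which the DD stays folded. Reference cultures stayed at 37°C with no stress (0 min). Heat stress (HS) was 42°C for 45 or 135 min, tunicamycin, which blocks N-linked glycosylation in the endoplasmic reticulum, was given at 5 µM for 45, 135 or 405 min, and each of the 6 groups held 3 samples. No HS sample at 405 min is analysed here. The reference samples are labelled 0 min only, and no group is an unstressed culture of a later time or one given vehicle alone. A difference from the reference or between times thus cannot be told apart from one of time in culture or, under tunicamycin, of its vehicle.

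AP-1 is a dimer of 2 basic leucine zipper (bZIP) proteins. Jun proteins pair with each other or with Fos proteins, while Fos proteins need a Jun partner to bind DNA. Fos, Fosb, Jun and Junb are textbook immediate-early genes: their transcripts appear within minutes of a stimulus, from transcription factors already present in the cell, and are short-lived. In fibroblasts they are best known for the response to serum and for stress signalling through the Jun kinases, and Jund is the member usually held at a steady level in resting cells.

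Levels are given as CPM, the reads of a gene divided by the size of its library after TMM scaling over the 18 samples. Levels of different genes are compared only as RPKM, which also divides by gene length. The RPKM values are the authors' own and were used without the TMM scaling. Differences between groups are log2 fold changes from edgeR's quasi-likelihood test with their standard error (SE). A gene is said to have risen or fallen where its p-value lay under 0.05 after Benjamini-Hochberg adjustment across the 12731 genes tested. The labels number the samples of a group without saying what separates them, so the p-values cover the spread between these samples only. Where the RNA of a whole culture is measured, fewer cells with a transcript and less of it per cell cannot be told apart.

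The samples held 33415592 to 66478268 reads on genes, and 3 reads corresponded to 0.0451 to 0.0898 CPM. The 9 fibroblast markers had median RPKM over the samples from 40.1 (Pdgfra) to 2515 (Vim), with 2026 for Col1a1. Their lowest value in any sample was 5.78 RPKM, for Pdgfra. Of 8 markers of epithelial, endothelial and blood cells Cd68 alone (3.72 to 7.61 RPKM) passed 0.1 RPKM in any sample. Hsph1, a heat shock chaperone, rose at 135 min of HS (log2 fold change 3.33, adjusted p = 0.00792, edgeR). At 45 min of HS it did not pass (1.10, adjusted p = 0.227, edgeR). Ddit3, the gene of the stress factor CHOP, had 71.9 ± 2.29 CPM in the reference and 542 ± 138, 208 ± 69.2 and 2630 ± 402 CPM (SD, n = 3) in the samples labelled 45, 135 and 405 min of tunicamycin. Hspa5, an endoplasmic reticulum chaperone, had 692 ± 40.4, 935 ± 17.2, 415 ± 79.1 and 9012 ± 252 CPM (SD, n = 3) in the same order. Both were thus lower in the samples labelled 135 min than in those labelled 45 min (edgeR, adjusted p = 0.109 and 0.0521), and the labels' times were used as given. An exchange of these time labels cannot be told apart from a true order of this kind in these files. It would exchange every 45 and 135 min tunicamycin value below. Ddit3 and Hspa5 also rose at 135 min of HS, by 2.32 and 0.96 on the log2 scale (adjusted p = 0.0122 and 0.0312, edgeR). In 2 heated libraries the GC-rich transcripts were low: the median log2 deviation from the group mean of the 10% of genes with the highest GC content, less that of the 10% with the lowest, was -1.2 in replicate 3 at 45 min of HS and -0.969 in replicate 1 at 135 min of HS, against -0.419 to 1.02 in the other 16. All 7 members were lowest of their group in these 2 libraries.

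The stretches just before the transcription starts of the 4 immediate-early members are shown with the letters of response elements that a search found in them. They are given 5′ to 3′ on the gene's strand, each ending at the base before the start (RefSeq, GRCm38.p6), and the capitals mark TGACG, the core letters of the cAMP response element, and TGANNTCA, an 8-letter form of the same kind of site.
Fos: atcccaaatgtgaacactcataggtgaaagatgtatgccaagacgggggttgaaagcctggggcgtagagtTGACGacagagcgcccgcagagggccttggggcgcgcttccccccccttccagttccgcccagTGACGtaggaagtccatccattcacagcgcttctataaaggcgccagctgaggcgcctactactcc
Fosb: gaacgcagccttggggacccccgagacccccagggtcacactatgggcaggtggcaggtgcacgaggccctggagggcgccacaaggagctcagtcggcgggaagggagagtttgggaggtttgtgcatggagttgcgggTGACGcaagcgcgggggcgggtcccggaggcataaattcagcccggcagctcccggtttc
Jun: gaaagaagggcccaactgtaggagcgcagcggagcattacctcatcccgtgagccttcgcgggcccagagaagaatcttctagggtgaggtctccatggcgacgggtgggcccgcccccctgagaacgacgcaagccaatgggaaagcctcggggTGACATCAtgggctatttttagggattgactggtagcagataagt
Junb: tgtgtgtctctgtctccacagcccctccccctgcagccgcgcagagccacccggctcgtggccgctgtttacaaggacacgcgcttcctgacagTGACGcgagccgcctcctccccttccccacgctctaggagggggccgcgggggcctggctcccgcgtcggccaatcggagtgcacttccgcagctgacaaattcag

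The Fos stretch lies at chr12:85473690-85473889 on the + strand and holds TGACG at 129 to 125 and at 66 to 62 bases before the start, with TATAAA, in lower case, 33 to 28 bases before it. The Fosb stretch, at chr7:19310046-19310245 on the - strand, holds TGACG at 60 to 56 bases before the start. In Jun, at chr4:95052223-95052422 on the - strand, TGACATCA lies 45 to 38 bases before the start, after CCAAT at 65 to 61 and GAATCTTC, a match to the heat shock element letters GAANNTTC, at 128 to 121. Junb, at chr8:84978749-84978948 on the - strand, holds TGACG at 106 to 102 and CCAAT at 36 to 32. Outside these 4, Jund holds TGANNTCA (61 to 54 bases before the start) and Fosl2 holds GAANNTTC (244 to 237). The motifs searched were TGACG and TGANNTCA of the cAMP response element, the CCAAT box, GAANNTTC of heat shock elements, the TATA box as TATAAA, and the CArG box bound by SRF, on both strands of the 250 bases before the start of the 6 members with an entry. No match of one motif overlapped that of another. TGACG stands in 17.8% of the 32851 promoters of the same length, TGANNTCA in 11.9%, CCAAT in 33.8%, GAANNTTC in 6.69% and TATAAA in 12.4%. The CArG box, in 1.47% of promoters, had no match in this window of any of the 6. Bases farther from the start than 250 were not searched, so this does not show that a member lacks the site.

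Fos, the gene of c-Fos and the best known immediate-early gene (mm9, chromosome 12, 86814851 to 86818219), had 24 to 437 reads per sample. The reference samples had 1.31, 1.02 and 1.08 CPM, against 8.34, 7.82 and 3.25 CPM at 45 min of HS and 1.41, 5.34 and 4.85 CPM at 135 min of HS. Every heated sample lay above every reference sample, although replicate 1 at 135 min was barely above. Tunicamycin gave 0.936, 0.86 and 1.14 CPM at 45 min, 6.56, 4.26 and 4.08 CPM at 135 min, and 0.442, 0.60 and 0.432 CPM at 405 min. Fos thus overlapped the reference at 45 min, lay above it at 135 min and below it at 405 min, the last 2 without overlap. It rose at 135 min of tunicamycin, 4.42-fold (log2 fold change 2.14, SE 0.282, adjusted p = 0.0457, edgeR). At 405 min it fell to 0.442 of the reference (log2 fold change -1.18, SE 0.239, adjusted p = 0.00473, edgeR). Under HS the differences were larger than or close to these, but so was the spread: 5.71-fold at 45 min (log2 fold change 2.51, SE 0.423, adjusted p = 0.227, edgeR) and 3.41-fold at 135 min (1.77, SE 0.494, adjusted p = 0.0655, edgeR).

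Fosb (chromosome 7, 19888045 to 19895394), a close relative of Fos whose shorter splice form is deltaFosB, had 73 to 690 reads per sample. It had 2.21, 1.71 and 1.67 CPM in the reference, 2.83, 3.27 and 1.76 CPM at 45 min of HS, and 2.21, 4.34 and 4.29 CPM at 135 min of HS. The heated samples reached at most 4.34 CPM and those at 45 min overlapped the reference. At 135 min of HS replicate 1 (2.214 CPM) was barely above reference replicate 1 (2.209 CPM). Under tunicamycin it had 2.20, 2.77 and 2.67 CPM at 45 min, 9.48, 8.57 and 18.9 CPM at 135 min and 1.51, 1.68 and 2.02 CPM at 405 min. The 3 samples at 135 min of tunicamycin stood above every other sample, and replicate 3 stood well above the other 2 of its group. Fosb rose there 6.68-fold (log2 fold change 2.74, SE 0.361, adjusted p = 0.0457, edgeR), and without that replicate the log2 fold change was 2.29. At 405 min it overlapped the reference (-0.08, SE 0.212, adjusted p = 0.777, edgeR).

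Fosl1 and Fosl2 encode Fra-1 and Fra-2, Fos relatives that appear later than Fos after serum and last longer. Fosl1 (chromosome 19, 5447698 to 5455938) had 37.9, 46.5 and 43.9 CPM in the reference, 62.9, 84.6 and 30.7 CPM at 45 min of HS and 27.1, 55.1 and 46.0 CPM at 135 min of HS. In tunicamycin it had 44.6, 45.8 and 51.6 CPM at 45 min, 83.5, 55.1 and 43.7 CPM at 135 min and 33.2, 43.7 and 40.8 CPM at 405 min. Every stressed group of Fosl1 overlapped the reference, and no comparison with it passed the test (adjusted p of 0.298 to 0.999, edgeR). Its 3′ end overlaps Ccdc85b, a gene on the other strand, and no source used here says whether counting used the strand, so part of its reads may belong there.

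Fosl2 (chromosome 5, 32438845 to 32460207) had 175, 140 and 122 CPM in the reference, 298, 338 and 204 CPM at 45 min of HS and 188, 305 and 257 CPM at 135 min of HS. It had 173, 203 and 238 CPM at 45 min, 274, 236 and 196 CPM at 135 min and 123, 122 and 111 CPM at 405 min of tunicamycin. Both HS groups and the group at 135 min of tunicamycin lay above all reference samples, by 1.92-, 1.72- and 1.63-fold, and none of these differences passed the test (adjusted p = 0.227, 0.0879 and 0.15, edgeR).

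**Figure D1:**
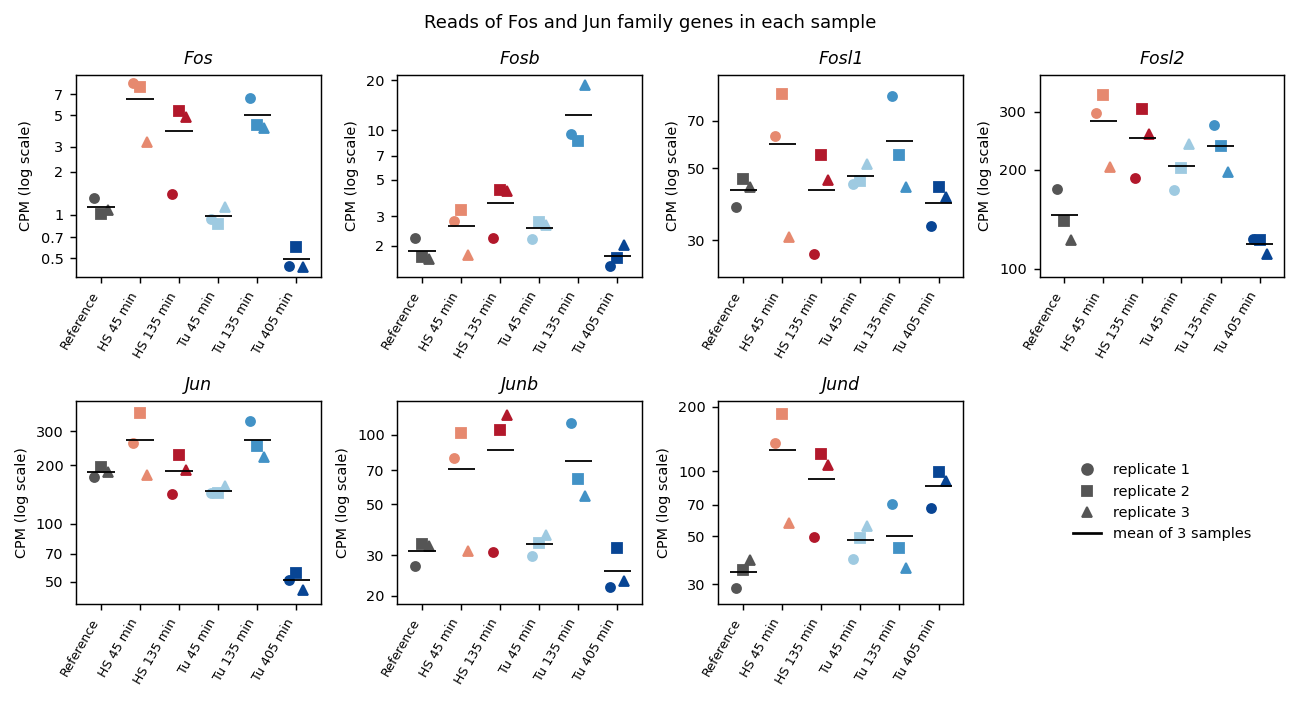
Level of each member in each of the 18 samples, in CPM on a log scale, by group (reference, HS for 45 and 135 min, tunicamycin for 45, 135 and 405 min). Points are samples, their shape the replicate number, and bars the mean of 3 samples. Fosb stands apart at 135 min of tunicamycin (8.57 to 18.9 CPM), Jun is lowest at 405 min of tunicamycin (45.5 to 55.9 CPM), and Jund is higher there (67.9 to 99.4 CPM) than in the reference (28.7 to 38.6 CPM).

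Jun, the gene of c-Jun, the strongest activator of the family (chromosome 4, 94715727 to 94718913), had 174, 197 and 184 CPM in the reference. It had 261, 375 and 178 CPM at 45 min of HS and 143, 226 and 189 CPM at 135 min of HS, so that both heated groups overlapped the reference. Under tunicamycin Jun had 144, 144 and 157 CPM at 45 min, 340, 253 and 220 CPM at 135 min and 51.3, 55.9 and 45.5 CPM at 405 min. These groups lay wholly below, wholly above and far below the reference. The fall at 405 min, to 0.279 of the reference, had the smallest p-value of the family (log2 fold change -1.84, SE 0.126, adjusted p = 3.35e-05, edgeR). The differences at 45 min (-0.30, SE 0.114, adjusted p = 0.147, edgeR) and at 135 min (0.56, SE 0.193, adjusted p = 0.193, edgeR) did not pass. At 45 min of HS Jun was 1.47-fold the reference (adjusted p = 0.287, edgeR), and at 135 min of HS 1.01-fold (log2 fold change 0.01, SE 0.22, adjusted p = 0.982, edgeR).

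Junb (chromosome 8, 87500811 to 87502617), whose protein often restrains Jun in growing cells, had 26.9, 33.6 and 32.8 CPM in the reference. Heated samples had 79.5, 102 and 31.4 CPM at 45 min and 31.1, 104 and 122 CPM at 135 min. In each HS group 1 library, the one low in GC-rich transcripts, sat among the reference samples and the other 2 were well above them. The differences, 2.27-fold at 45 min (adjusted p = 0.232, edgeR) and 2.76-fold at 135 min (adjusted p = 0.0838, edgeR), did not pass the test. With tunicamycin Junb had 29.9, 33.8 and 36.8 CPM at 45 min, 113, 64.2 and 54.4 CPM at 135 min and 21.8, 32.1 and 23.1 CPM at 405 min. The group at 135 min was above the reference without overlap, by 2.49-fold (log2 fold change 1.32, SE 0.275, adjusted p = 0.0969, edgeR).

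Jund (chromosome 8, 73221638 to 73224515), held to be the steady member, was called under both stresses. It had 28.7, 34.7 and 38.6 CPM in the reference, 136, 185 and 57.8 CPM at 45 min of HS and 49.9, 121 and 107 CPM at 135 min of HS. All 6 heated samples lay above all 3 reference samples. In tunicamycin Jund had 39.4, 49.2 and 55.5 CPM at 45 min, 70.7, 44.2 and 35.8 CPM at 135 min and 67.9, 99.4 and 90.7 CPM at 405 min. It rose at 135 min of HS, 2.73-fold (log2 fold change 1.45, SE 0.339, adjusted p = 0.0439, edgeR). It also rose at 405 min of tunicamycin, 2.57-fold (1.36, SE 0.181, adjusted p = 0.000629, edgeR). At 45 min of HS the difference of 3.71-fold did not pass (1.89, SE 0.41, adjusted p = 0.227, edgeR). The 5′ end of Jun and the body of Jund overlap antisense transcripts in the GENCODE annotation of this build, BC042782 and Gm11175, whose reads cannot be told apart from theirs if strand was not used.

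**Figure D2:**
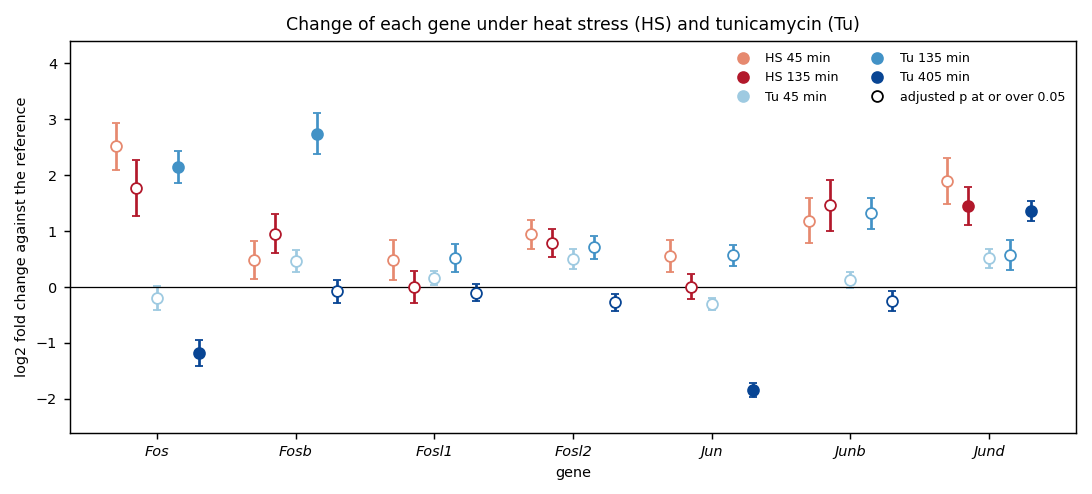
Log2 fold change of each member against the reference in the 5 stressed groups, with bars of 1 SE, from edgeR. Filled points passed the test at an adjusted p under 0.05: Jund at 135 min of HS, Fos and Fosb at 135 min of tunicamycin, and Fos, Jun and Jund at 405 min of tunicamycin.

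At 45 min of HS none of the 7 members passed the test, 4 had an unadjusted p under 0.05 (Fos, Fosl2, Junb and Jund, all higher), and DESeq2's Wald test called Fos and Jund. Over all genes, 0% were called higher and 0% lower by edgeR, 12.3% and 7.16% had an unadjusted p under 0.05, and DESeq2 called 386 genes higher and 65 lower. The median log2 fold change of the members was 0.94, against -0.03 over all genes tested. Fos, Fosl2 and Jund lay above the reference without overlap, as did 12.5% of all genes. Without replicate 3, the library low in GC-rich transcripts, 6 members passed (all but Fosb), with log2 fold changes of 2.84 for Fos, 2.24 for Jund and 1.54 for Junb, and 2737 genes were called higher and 3049 lower. With an offset for transcript GC content in each sample, which also takes out any true difference that follows GC content, no member passed. Fos and Fosl2 were then at 2.38 and 0.82, close to their values without it, while Jund came to 0.82, Jun to 0.13, Junb to 0.11, Fosb to 0.02 and Fosl1 to -0.22.

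At 135 min of HS, Jund was the 1 member called, where 4.75% of all genes were called higher and 2.64% lower. Fos, Fosb, Fosl2 and Jund lay above the reference without overlap, as did 18.1% of all genes, though replicate 1 was barely above for Fos and Fosb. The median log2 fold change was 0.95 for the members and -0.02 for all genes. The Jund call was lost on leaving out 4 of the 6 samples in turn (without any of the reference replicates, or without replicate 3 at 135 min). Without replicate 1 at 135 min, 5 members passed: Fos (2.17), Fosb (1.21), Fosl2 (0.95), Junb (1.86) and Jund, among 1535 genes called higher and 932 lower (605 and 336 with all samples). With the GC offset Junb came to 0.78 and Jund to 0.79 (adjusted p = 0.17 and 0.0754, edgeR), and Fos was called in its place (1.61, adjusted p = 0.0478, edgeR). Over all genes the offset gave 1198 called higher and 1253 lower.

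No member was shown to differ between the HS times. Between 135 and 45 min of HS none of the 7 members was called by edgeR or DESeq2, none had an unadjusted p under 0.05 (5.17% of all genes did and were higher, 6.46% lower) and all overlapped, where 0% of all genes were called by edgeR, 9.43% lay wholly higher and 8.32% wholly lower. Over all genes DESeq2 called 194 higher at 135 min and 209 lower. The estimates for the members ran from -0.80 for Fos and -0.60 for Jun to 0.42 for Fosb, on the log2 scale. Their SEs were 0.272 to 0.602.

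Jund and Fosb were both lowest of their group in the 2 heated libraries low in GC-rich transcripts. In the reference Jund went the other way: replicate 1, at 0.65 on the GC measure, deviated by -0.235 on the log2 scale. Replicates 2 and 3, at -0.315 and -0.326, deviated by 0.0402 and 0.195. The Jund transcript has a GC content of 62.7% and that of Junb 62.6%, above 98.5% of all genes. That of Fosb is 56.25% and that of Fos 51.9%, with a median of 49.7%. In replicate 3 at 45 min of HS, Jund deviated from its group mean by -0.97 and Junb by -1.01 on the log2 scale, while of the 2 members with a GC content of 51.9% Fos deviated by -0.871 and Fosl2 by -0.424. In replicate 1 at 135 min of HS, Fos deviated by -1.23, Junb by -1.24 and Jund by -0.794. What part GC content had in these deviations was not tested beyond the offset.

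**Figure D3:**
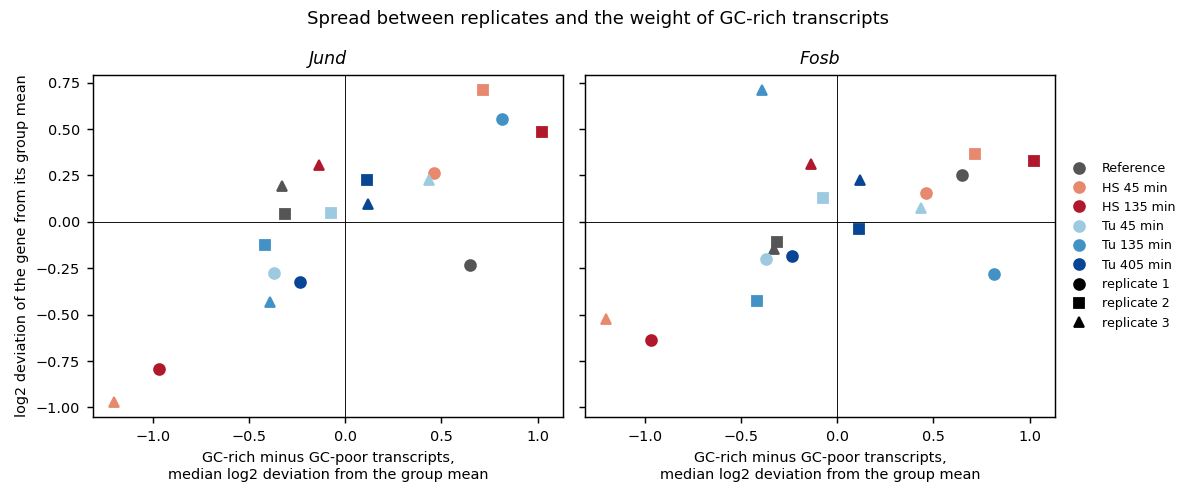
Deviation of Jund (left) and Fosb (right) from their group mean in each of the 18 samples, on the log2 scale, against the deviation of GC-rich less GC-poor transcripts in the same library. Colours are groups and shapes replicate numbers. The 2 heated libraries at the lower left, at -1.2 and -0.969 on the horizontal axis, have the lowest deviations of both Jund and Fosb. The highest Fosb deviation (0.71, replicate 3 at 135 min of tunicamycin) sits at -0.391.

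At 45 min of tunicamycin no member was called by edgeR or DESeq2. Over all genes edgeR called 4.01% higher and 2.17% lower, and DESeq2 called 972 genes higher and 871 lower. Fosl2 and Jund were higher at an unadjusted p under 0.05, as were 14.1% of all genes, and Jun was lower, as were 11.5%. Jund lay above the reference without overlap and Jun below it, as did 17.2% and 16% of all genes. The median log2 fold change of the members was 0.16, against -0.0038 over all genes. Leaving out reference replicate 1 added calls for Fosl2 and Jun, while the genes called over all went from 510 higher and 276 lower to 1391 and 1108.

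At 135 min of tunicamycin, Fos and Fosb were the members called by edgeR, among only 0.126% of all genes called higher and 0.00785% lower. DESeq2 called Fos, Fosb and Junb, among 329 genes called higher and 336 lower. Its log2 fold change for Junb was 1.315 (adjusted p = 0.00184, DESeq2 Wald test). Of the members 5 lay above the reference without overlap (Fos, Fosb, Fosl2, Jun and Junb), as did 13.7% of all genes. The median log2 fold change was 0.71 for the members and -0.0029 for all genes. Samples with the same replicate number deviated together between these groups, though the labels do not say that a number marks a shared batch. With the replicate number as a block both edgeR calls, of Fos and Fosb, were lost, and 0 of all genes were called. The log2 fold changes were then 2.12 for Fos and 2.65 for Fosb (adjusted p = 0.0695 for each, edgeR). Both calls also went in 5 of the 6 fits that left out 1 sample, all but the one without replicate 1 at 135 min. In those 5 fits at most 3 genes of 12731 were called at all, and over the 6 fits the log2 fold changes were 1.91 to 2.26 for Fos and 2.29 to 2.94 for Fosb.

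At 405 min of tunicamycin the family divided: Jund rose, Fos and Jun fell, and Fosb, Fosl1, Fosl2 and Junb did not pass, with log2 fold changes of -0.27 to -0.08. Among all genes 23.3% were called higher and 23.5% lower, so that 3 called of 7 members is close to the share of all genes called in either direction (46.8%). These 3 were also the members that did not overlap the reference, where 29.2% of all genes lay wholly above and 29.5% wholly below. All 3 calls held whichever of the 6 samples was left out, with the replicate block and with the GC offset, where Jund came to 1.05, Jun to -2.01 and Fos to -1.25. In a fit of all 6 groups that shares their spread, the Fos call was lost (-1.20, adjusted p = 0.0535, edgeR). Of the 9 fibroblast markers 7 also fell at this time, among them Pdgfra (log2 fold change -2.61, adjusted p = 1.11e-05, edgeR), and what this has to do with the levels of Fos and Jun was not tested.

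The change between the tunicamycin times was tested directly. From the samples labelled 45 min to those labelled 135 min, Fos rose 5.08-fold (log2 fold change 2.34, SE 0.256, adjusted p = 0.0299, edgeR), where 0.118% of all genes were called higher and 0.173% lower. Fosb, Jun and Junb were also higher without overlap, as were 11.3% of all genes, at 2.28, 0.87 and 1.20 on the log2 scale (adjusted p = 0.0636, 0.11 and 0.137, edgeR). The Fos call was lost in 5 of the 6 fits without 1 sample, and without replicate 1 at 135 min these 4 members passed, among 107 genes called higher and 111 lower.

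From 135 to 405 min of tunicamycin 5 members fell. Fos dropped 10.2-fold (log2 fold change -3.35, SE 0.281, adjusted p = 0.000137, edgeR) and Fosb 7.19-fold (-2.85, SE 0.343, adjusted p = 0.000633, edgeR). Jun dropped 5.41-fold (-2.44, SE 0.193, adjusted p = 0.000112, edgeR), Junb 3.05-fold (-1.61, SE 0.296, adjusted p = 0.00394, edgeR) and Fosl2 2.01-fold (-1.01, SE 0.153, adjusted p = 0.00171, edgeR). Fosl1 was 1.57-fold lower (adjusted p = 0.0629, edgeR), and Jund went the other way, 1.69-fold higher with overlap (adjusted p = 0.0528, edgeR). Over all genes 21.4% were called higher and 22.4% lower. All members but Jund lay lower without overlap, as did 26.9% of all genes. These comparisons share the samples at 135 min, so that a high sample there enters both.

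HS and tunicamycin were compared directly at the times they share. At 45 min none of the 7 members was called by edgeR (0.0628% of all genes were higher in HS and 0.141% lower), and 4 were higher in HS at an unadjusted p under 0.05 (14.4% of all genes were). DESeq2 called Fos and Jund, among 748 genes called higher in HS and 379 lower. Fos was 6.60-fold higher in HS (log2 difference 2.72, SE 0.411, adjusted p = 0.0679, edgeR), Jund 2.63-fold (1.39, SE 0.41, adjusted p = 0.148, edgeR), Junb 2.11-fold and Jun 1.83-fold (adjusted p = 0.187 and 0.161, edgeR). Fos, Jun and Jund were higher in HS without overlap, as were 13.1% of all genes. Without replicate 3 at 45 min of HS, 6 members passed, Fos then differed by 3.05, and 3416 of all genes were called higher in HS and 3671 lower. With the GC offset Fos was called (2.65, adjusted p = 0.0218, edgeR), among 271 genes called higher in HS and 311 lower (8 and 18 without it). Jun, Jund and Junb came to 0.53, 0.48 and 0.15.

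At 135 min, again none was called by edgeR (1.3% of all genes were higher in HS and 0.817% lower), and Fosb alone was lower in HS at an unadjusted p under 0.05 (9.75% of all genes were). It was also called by DESeq2, among 715 genes called higher in HS and 541 lower. Fosb was 3.47-fold lower in HS (log2 difference -1.80, SE 0.421, adjusted p = 0.0786, edgeR) with no overlap, as were 13.1% of all genes. The Fos values of the stresses overlapped (log2 difference -0.39, SE 0.496, adjusted p = 0.726, edgeR), and Jund was 1.81-fold higher in HS with overlap (adjusted p = 0.276, edgeR). With the GC offset Fosb, Fosl1 and Jun were called lower in HS, among 778 genes called higher and 654 lower (166 and 104 without it).

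Per gene length, Jun had the highest mean of the members in 5 of the 6 groups, overlapping Junb at 135 min of HS (43.2 ± 4.95 against 34.4 ± 18.1 RPKM; SD, n = 3), and Jund had it in the other one. In the reference the order by RPKM was Jun (49.7 ± 4.42), Fosl1 (21.5 ± 2.86), Fosl2 (21.1 ± 3.14), Junb (14.8 ± 2.19), Jund (10.1 ± 1.83), Fos (0.461 ± 0.0461) and Fosb (0.42 ± 0.0515; SD, n = 3 for each). Neighbours in this order overlapped for Fosl1 and Fosl2 and for Fos and Fosb, and were apart otherwise. Fos and Fosb were the least abundant in every group, and even at 135 min of tunicamycin they reached only 1.95 ± 0.397 and 2.74 ± 1.42 RPKM (SD, n = 3). At 405 min of tunicamycin the order began with Jund (24.3 ± 3.98 RPKM), which overlapped Fosl1 (18.7 ± 2.09 RPKM), and Jun was the fourth (13.0 ± 1.35 RPKM; SD, n = 3).

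The summed RPKM of the family was 118 ± 8.26 in the reference, 187 ± 55.3 and 153 ± 38.3 at 45 and 135 min of HS, and 132 ± 7.72, 186 ± 36.4 and 84.7 ± 8.01 at 45, 135 and 405 min of tunicamycin (SD, n = 3). Jun made up 42.05% ± 0.827 of that sum in the reference and 15.4% ± 1.72 at 405 min of tunicamycin (SD, n = 3). Jund made up 8.55% ± 1.17 and 28.6% ± 2.83 (SD, n = 3). In the other groups the share of Jun was 29.1% to 37.8% and that of Jund 7.58% to 16.6% (group means). The sums lack the TMM scaling of the CPM values, so groups need not compare alike on both scales. Fosl1, for one, had means of 18.4 RPKM at 135 min of HS and 21.5 RPKM in the reference, but 42.8 and 42.7 CPM.

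**Figure D4:**
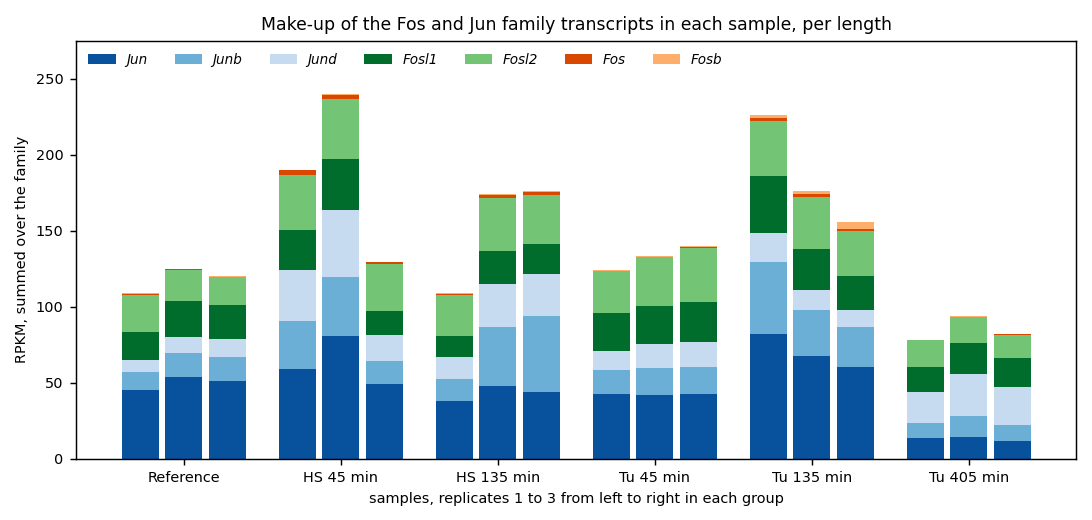
RPKM of each member in each sample, stacked to the family sum, by group (n = 3). By group mean, Jun is the largest layer in every group except 405 min of tunicamycin. There the mean sum is lowest (84.7 RPKM) and Jund has the largest mean (24.3 RPKM). In replicate 3 at 135 min of HS, the Junb layer (49.9 RPKM) is larger than that of Jun (43.8 RPKM).

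In transcript features that the choice of members did not use, the family was mixed. ATTTA, the pentamer of AU-rich elements that mark short-lived transcripts, occurs 8 times in the 3′ UTR of Fosl2, 4 times in those of Fos and Jun, 2 times in that of Junb and 1 time each in those of Fosb, Fosl1 and Jund. At least 8 occur in 7.10% of the 19815 3′ UTRs compared and at least 4 in 22.6%. These counts and shares take no account of length. The 3′ UTR has 4642 bases in Fosl2, 815 in Fos, 1233 in Jun and 483 in Junb. In Fosb, Fosl1 and Jund it has 2120, 637 and 533 bases.

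Other bZIP proteins that pair with Fos or Jun were followed beside them. Of the 7 of 10 partner genes tested, 2 rose at 135 min of HS (edgeR), where 4.75% of all genes did. Under tunicamycin 2 rose at 45 min and 1 at 135 min (4.01% and 0.126% of all genes). At 405 min 4 rose and 1 fell, where 23.3% of all genes rose and 23.5% fell. Atf3, a stress-induced partner of Jun, had 1.03 ± 0.183 CPM in the reference, 6.79 ± 3.11 and 50.9 ± 20.4 CPM at 45 and 135 min of HS, and 29.6 ± 3.31, 4.68 ± 0.846 and 93.1 ± 2.42 CPM at 45, 135 and 405 min of tunicamycin (SD, n = 3). Atf3 rose at 135 min of tunicamycin along with Fos and Fosb (log2 fold change 2.19, adjusted p = 0.0457, edgeR), but was lower there than at 45 min (-2.66, adjusted p = 0.0062, edgeR). Jdp2, a repressor of AP-1 that pairs with Jun, rose at 135 min of HS, at 45 min of tunicamycin and at 405 min of tunicamycin, by 1.80, 1.25 and 1.87 on the log2 scale (edgeR, adjusted p = 0.0185, 0.00621 and 3.35e-05). Mafk, a small Maf protein, rose at 405 min (1.44, adjusted p = 0.000109, edgeR).

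Upstream of the family, 12 MAP kinase and MAP kinase kinase genes were followed. At 45 min of tunicamycin 2 fell, as did 2.17% of all genes. At 405 min, where 23.3% of all genes rose and 23.5% fell, 2 rose and 4 fell, among them Map2k3 (log2 fold change -1.12, adjusted p = 0.000135, edgeR) and Mapk14, the gene of p38 alpha (-1.20, adjusted p = 0.000341, edgeR). Of SRF and its 3 Elk partners, which act on the Fos promoter, 3 of 4 were called at 405 min, where 46.8% of all genes were: Elk1 rose (0.95, adjusted p = 0.00146, edgeR) and Elk3 and Elk4 fell (-1.36 and -0.65, adjusted p = 9.15e-05 and 0.0133, edgeR). These are transcript levels, and the kinases are known to act through phosphorylation, which was not measured.

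Among genes that remove the products of the family, Fbxw7, which marks Jun for degradation, fell at 405 min of tunicamycin (-0.87, adjusted p = 0.00696, edgeR). Det1, of the COP1 ligase, rose there (0.91, adjusted p = 0.00106, edgeR). They were the only calls against the reference among 4 genes tested, where 23.5% of all genes fell and 23.3% rose at 405 min. Of the 6 genes for proteins that bind AU-rich transcripts, Zfp36l1 rose (2.80, adjusted p = 0.0127, edgeR) and Zfp36l2 fell (-1.21, adjusted p = 0.0271, edgeR) at 135 min of HS. At this time 4.75% of all genes rose and 2.64% fell. Zfp36l2 also fell at 45 min of tunicamycin, as did 2.17% of all genes. At 405 min of tunicamycin 2 of the 6 rose and 1 fell, against the shares of all genes above.

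Textbook AP-1 targets were called in both directions under tunicamycin. Of the 9 of 13 tested, 2 rose at 135 min of HS, where 4.75% of all genes did. At 45 min of tunicamycin 1 rose and 1 fell (4.01% and 2.17% of all genes), and at 135 min 1 rose (0.126%). At 405 min 2 rose and 3 fell, where 23.3% of all genes rose and 23.5% fell. Plau, the urokinase gene, fell at 405 min, from 33.4 ± 1.36 to 2.13 ± 0.167 CPM (SD, n = 3; log2 fold change -3.95, adjusted p = 2.68e-06, edgeR), and Cd44 fell with it (-1.47, adjusted p = 0.000128, edgeR). Vegfa, which many stress pathways induce, rose at 135 min of HS and at all 3 times of tunicamycin, by 1.77, 1.83, 1.39 and 2.13 on the log2 scale (adjusted p = 0.0122, 0.00122, 0.0457 and 1.19e-05, edgeR).

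Of 15 other immediate-early genes, edgeR called 2 higher and 1 lower at 135 min of HS (4.75% and 2.64% of all genes), and 5 higher and 1 lower at 45 min of tunicamycin (4.01% and 2.17% of all genes). It called 4 higher at 135 min of tunicamycin (0.126% of all genes), and 6 higher and 6 lower at 405 min (23.3% and 23.5% of all genes). Their median log2 fold change at 135 min of tunicamycin was 0.92, against 0.71 for the AP-1 members. Dusp1, a phosphatase that switches the kinases off, fell at 45 and 405 min of tunicamycin (-0.98 and -1.35, adjusted p = 0.00869 and 0.000119, edgeR).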

How the data were processed

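Processed mRNA-seq files of 18 samples (6 groups of 3) were used, grouped by their labels. The authors sequenced poly(A) RNA primed with random hexamers on an Illumina HiSeq 2000, and aligned and counted the reads on RefSeq genes of mm9 with DNAnexus. Libraries were made by a modified Illumina protocol and also with a NuGEN kit. The aligner, the counter, their versions, the strand setting and which of the preparations each sample had are not given in the sources used here. Each file the authors deposited gives an estimated count for every gene, of which 17.7% to 23.2% of the low values per library were not whole, and an RPKM value that the authors made from it. They also deposited a score and a signal made from the RPKM, which were not used.

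Estimated counts were rounded and tested with edgeR 4.0.16 (R 4.3.3; TMM, quasi-likelihood test) on the 2 groups compared, over 12731 genes (those with 1 read or more in all 18 samples), with Benjamini-Hochberg adjustment and a threshold of 0.05. The 10 comparisons and 70 tests of members share samples. The SE was derived from the fold change and its F statistic. Depth was 33415592 to 66478268 reads. A level of 3 reads is a floor for counting error only. Replicates differed beyond sampling noise (chi-square per degree of freedom of 15.0 to 821). GC content came from GENCODE transcripts on the same build, with a value for 19513 of 20207 genes (96.6%, 799 by synonym).

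All 7 members are named, from each other list up to 3 genes with the smallest adjusted p against the reference, for likeness up to 3 genes per member (1 result is not reported here), and Hsph1, Hspa5 and Ddit3 as checks of the labels. Ccdc85b and the overlapping antisense transcripts are named for their position, and Col1a1, Vim, Pdgfra and Cd68 as markers. The members and lists were chosen with earlier results of these data known. The replicate numbers come from the labels. The correlation of same-numbered deviations passed 0.1 for every pair only between 135 min of tunicamycin and the reference (0.287, 0.236 and 0.194). That is 1 of the 10 comparisons, and the labels do not say that a number marks a shared batch. In both groups replicate 1 was high in GC-rich transcripts and replicates 2 and 3 were low. The GC measure was 0.65, -0.315 and -0.326 in the reference and 0.814, -0.419 and -0.391 at 135 min of tunicamycin. Whether the numbers pair samples was not tested, and the block is an alternative only. The alternatives were edgeR with its RLE scaling in place of TMM, the DESeq2 1.42.0 Wald test, no filter on low counts, and a shared fit of all 6 groups, alone and with 1 surrogate variable (sva 3.50.0). The others were the replicate block, a GC offset (lowess, span 0.3), both of these together, and leaving out each sample. Python 3.11.15 with pandas 2.3.3 and numpy 2.4.6 was used for tables and matplotlib 3.10.9 for plots.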

Additional observations from a re-analysis of the deposited data

Results flagged for a closer look

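Levels under tunicamycin differed between its times for 5 members, by the test of the difference between the times itself. Fos differed by 2.34 on the log2 scale between the samples labelled 135 and 45 min (edgeR, adjusted p = 0.0299), higher at 135 min, and by -3.35 between 405 and 135 min (edgeR, adjusted p = 0.000137). Between 405 and 135 min Fosb differed by -2.85 (edgeR, adjusted p = 0.000633), Jun by -2.44 (edgeR, adjusted p = 0.000112), Junb by -1.61 (edgeR, adjusted p = 0.00394) and Fosl2 by -1.01 (edgeR, adjusted p = 0.00171). In each case all 3 samples of one time lay beyond all 3 of the other. The order of the 45 and 135 min samples in Ddit3, Hspa5 and Atf3 is given beside the description of the samples and of Atf3, and its bearing on these differences was not tested.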

How the results depend on the processing

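Of 560 alternative values, 458 kept their direction and side of the threshold, 10 lost and 64 gained a call and 28 turned. In 420 fits without 1 sample, 358 kept both, 19 lost and 23 gained a call and 20 turned. The causes were not tested. Of the members Fos and Fosb had the fewest reads, as few as 24 and 73 in a sample.

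The number of members called moved as follows, and so did the genes called over all, given in brackets as higher and lower. The fit of the report called 0 and 0 at 45 min of HS and 605 and 336 at 135 min of HS. It called 510 and 276 at 45 min and 16 and 1 at 135 min of tunicamycin. It called 0 and 0 between the HS times, and 15 and 22 for tunicamycin 135 against 45 min. For HS against tunicamycin it called 8 and 18 at 45 min and 166 and 104 at 135 min. The DESeq2 Wald test gave 2 at 45 min of HS (386 and 65), 3 at 135 min of HS (1232 and 927) and 4 for tunicamycin 135 against 45 min (323 and 294). It then gave 2 for HS against tunicamycin at 45 min (748 and 379) and 1 at 135 min (715 and 541). The shared fit gave, in the same order, 3 (925 and 420), 5 (1829 and 1414), 2 (40 and 65), 3 (719 and 551) and 1 (998 and 773). No filter gave 2 for tunicamycin 135 against 45 min (18 and 26). The GC offset gave 4 there (175 and 180), and 1 (271 and 311) and 3 (778 and 654) for HS against tunicamycin at 45 and 135 min. With the replicate block, alone or with the GC offset, the number was 0 at 135 min of HS, 0 at 135 min of tunicamycin and 0 for tunicamycin 135 against 45 min. Over all genes these fits called 0 and 0, except at 135 min of HS with block and offset (403 and 260). The block moved no other number by over 1.5 times, and the labels do not say that its numbers mark a shared batch. With 1 surrogate variable the numbers were 3 (641 and 675) at 45 min and 4 (2398 and 2618) at 135 min of HS. They were 2 (1700 and 1580) at 45 min and 5 (1293 and 1433) at 135 min of tunicamycin. For HS 135 against 45 min it was 1 (1720 and 1616), and for tunicamycin 135 against 45 min 4 (721 and 770). For HS against tunicamycin they were 2 (810 and 1151) at 45 min and 5 (2188 and 2163) at 135 min. Without 1 sample the numbers ran from 0 to 6 at 45 min of HS, 0 to 5 at 135 min of HS, 0 to 2 at 45 and at 135 min of tunicamycin, 0 to 4 for tunicamycin 135 against 45 min, 5 to 6 for 405 against 135 min and 0 to 6 for HS against tunicamycin at 45 min. Between the HS times, leaving out both libraries low in GC-rich transcripts, chosen after seeing the data, gave 0 members again.

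Values that turned were all uncalled in the fit of the report, and 1 of them passed once turned (Fosl1 at 135 min of HS with the surrogate variable, edgeR adjusted p = 0.0377). With the GC offset, block and offset, and surrogate variable they were, for Fosl1, -0.22, -0.21 and -0.27 at 45 min of HS, -0.48, -0.46 and -0.50 at 135 min of HS (-0.00857 with no filter, -0.0541 with the block) and -0.26, -0.27 and -0.30 for HS against tunicamycin at 45 min. For Jun at 135 min of HS they were -0.28, -0.27 and -0.32 (-0.0141 with the block). For Jund, tunicamycin 135 against 45 min, they were -0.18, -0.18 and -0.0945. For Fosb, HS against tunicamycin at 45 min, they were -0.36, -0.35 and -0.27 (-0.00099 with the block), and for Junb at 135 min -0.14, -0.24 and -0.15. Junb at 45 min of tunicamycin turned to -0.0276 with the offset and -0.048 with the surrogate variable, and Fosl2, HS against tunicamycin at 135 min, to -0.0813 with the latter. Without 1 sample, Fosl1 and Jun at 135 min of HS ran from -0.19 to 0.24 and -0.12 to 0.17, Fosb at 405 min of tunicamycin from -0.21 to 0.0605, Junb between the HS times from -0.13 to 0.63 and Jund for tunicamycin 135 against 45 min from -0.24 to 0.25. For HS against tunicamycin, Fosb and Fosl1 at 45 min ran from -0.16 to 0.26 and -0.0221 to 0.64, and Fos, Fosl2 and Junb at 135 min from -0.65 to 0.0113, -0.0674 to 0.23 and -0.26 to 0.53.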

Other observations

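The genes whose log2 CPM followed each member most closely over the 18 samples, among 10859 genes with a mean of at least 1 CPM, are given as a description. All points share the 6 groups, and libraries low in GC-rich transcripts lower many genes together. Fos was most like Snai1 (Pearson's r = 0.988), Samd1 (0.955) and Midn (0.954). For Fosb, r was 0.815 with Ston2 and 0.814 with Bak1. Fosl1 was most like Cntrob (0.930), Phc2 (0.905) and Dok1 (0.892), and Fosl2 most like Dlg5 (0.985), Gpc1 (0.978) and Nfatc1 (0.973). Jun was most like Oaf (0.983), Nes (0.975) and Angptl2 (0.973), Junb most like Il11 (0.946), Socs3 (0.943) and Plekho1 (0.937), and Jund most like Irx5 (0.972), Prkcdbp (0.965) and Pgrmc1 (0.964). No member stood among the 3 nearest genes of another. Between members r was 0.893 for Fos and Junb, 0.882 for Fos and Fosl2 and 0.853 for Fos and Jun, against 0.030 for Jund and Jun and -0.018 for Jund and Fosb (n = 18 samples).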
